A study of Homo sapiens with 6 samples.

Results

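The genes described here are 40 genes of the NRF2 antioxidant program and of the pentose phosphate pathway, measured by RNA-seq in HCC2814 cells, a human lung squamous cell carcinoma (LUSC) line. They were listed by symbol, and all 40 were found by symbol among the 17448 genes listed in the deposited table. All 40 also passed the filter on low counts, which left 12951 genes for testing. The samples were 3 WT libraries from cells that received a non-targeting guide RNA (sgControl) and 3 MLST8-KO libraries from cells that received a guide against MLST8, a subunit of both mTOR complexes. The labels give 48 to 72 h of exposure to the guides, and the cells were selected with antibiotic. The paper's methods give that time for collecting virus, and a shorter one for infecting the cells before selection. The knockout cells were selected as a population, and the labels do not say whether the numbered samples of a group carried the same guide or came from separate cultures, so p-values measure only the spread between these samples, which may be technical. The question was how high these genes stood in the cells and which of them differed once MLST8 was targeted.

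NRF2, the product of NFE2L2, is a transcription factor that is held in the cytoplasm by KEAP1 and passed to degradation through the CUL3 ubiquitin ligase. Oxidants and electrophiles modify KEAP1, after which NRF2 enters the nucleus, pairs with a small MAF protein and binds antioxidant response elements near its target genes. Its targets make glutathione, reduce thioredoxin and quinones, handle heme and iron, and supply NADPH, in part through the pentose phosphate pathway. Changes in NFE2L2, KEAP1 or CUL3 that leave NRF2 active are common in squamous lung cancer.

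Promoter windows were read for the antioxidant response element because it links the members that NRF2 binds. The windows ran from 250 bases before to 50 bases after each gene start in RefSeq (GRCh38.p14), and 29 of the 40 members matched, with 37 windows. The motif searched was TGACNNNGC on both strands. It was present in 12 of the 37 windows (32.4%), which belong to 11 members, against 13.3% of all 35116 windows. A longer form, the same letters followed by A, was present in 6 windows (16.2%), against 3.2% of all windows. The 6 sites with the longer form and the site of PIR, a member that fell in MLST8-KO cells, are printed below with 10 bases on each side, each on the strand that reads the motif forward and with TGACNNNGC in capitals.
GCLM: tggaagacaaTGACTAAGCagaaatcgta
TXNRD1: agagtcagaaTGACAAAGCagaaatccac
GSTP1: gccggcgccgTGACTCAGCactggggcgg
KEAP1: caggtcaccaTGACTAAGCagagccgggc
MGST1: ggggacatcgTGACAAAGCaaattgtctg
CBR1: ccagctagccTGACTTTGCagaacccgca
PIR: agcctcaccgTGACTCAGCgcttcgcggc

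The site of GCLM lies on the plus strand at chr1:93909446-93909474, that of GSTP1 on the plus strand at chr11:67583736-67583764 and that of KEAP1 on the plus strand at chr19:10502784-10502812, each before the RefSeq start of its window. In the GENCODE gene models used for the other coordinates, the KEAP1 and GSTP1 sites lie inside the gene and the GCLM site spans its start. The TXNRD1 site lies on the minus strand at chr12:104286920-104286948, likewise before a start inside the gene, and the CBR1 site on the minus strand at chr21:36069855-36069883, before its gene start. The MGST1 site at chr12:16347135-16347163 and the PIR site at chrX:15493289-15493317, both on the plus strand, begin just after the start of their windows' genes. A match is only a run of letters in these windows and does not show that NRF2 bound there.

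Estimated counts summed to between 14381673 and 15744154 per library, and the 40 members took between 6.11% and 6.86% of them. MLST8 itself (chr16:2204248-2209416) stood at 58.0, 56.9 and 60.7 CPM in WT and at 25.5, 38.9 and 25.7 CPM in MLST8-KO libraries, a log2 fold change of -0.96 ± 0.15 (SE). Its adjusted p, by the quasi-likelihood test of edgeR with the Benjamini-Hochberg method as for every adjusted p below, was 0.00339. CPM are depth-scaled counts after TMM scaling and serve to compare samples, whereas TPM are per length and serve to compare genes. The squamous markers were present, with summed levels of 11156 to 16720 TPM in WT and 20274 to 22653 TPM in MLST8-KO libraries, and 9 of the 11 rose. Lung adenocarcinoma markers summed to 5.03 to 8.28 TPM in WT and 13.7 to 14.1 TPM in MLST8-KO libraries, where NKX2-1 rose (log2 fold change 1.81, adjusted p = 0.00281), and blood cell and endothelial markers to at most 5.28 TPM. The 10 liver markers, ALB and AFP among them, summed to 253 TPM in MLST8-KO replicate 1 and to between 0.88 and 6.24 TPM in the other 5 libraries, and fibroblast markers to 10.1 to 13.5 TPM, most of it COL1A1. In a bulk sample fewer cells of a type and less RNA per cell cannot be told apart.

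The NRF2 targets were among the most abundant transcripts of these cells. By mean TPM in WT, 16 of the 40 members lay in the top 1% of the 17448 genes, 28 in the top 5%, 31 in the top 10% and 39 in the top 50%. Together they held 10.7% ± 0.41 of all TPM in WT and 10.1% ± 0.31 in MLST8-KO libraries (SD, n = 3 each), with overlapping groups. Most of this came from the ferritin pair, which held 6.31% ± 0.32 in WT and 5.76% ± 0.39 in MLST8-KO libraries. The other 38 members held 4.36% ± 0.33 and 4.30% ± 0.10.

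FTL, the light chain of ferritin, had the highest mean TPM of any gene in WT, with 38085, 35558 and 37809 TPM, and in MLST8-KO libraries it had 30953, 36062 and 34623 TPM. FTH1, the heavy chain that oxidizes iron, ranked 3 in both groups, with 26019, 23986 and 27814 TPM in WT. AKR1C1 ranked 6 and AKR1C3 ranked 7 in WT, both aldo-keto reductases of steroids and lipid aldehydes, with means of 7580 ± 92.2 and 6868 ± 537 TPM. The next levels were those of the redox proteins TXN, at 4641 ± 479 TPM, and PRDX1, at 3268 ± 221 TPM. NFE2L2 itself stood at 239 ± 13.5 TPM and KEAP1 at 108 ± 4.91 TPM, below the NRF2 target NQO1 at 1499 ± 197 TPM. The lowest members were CBR3, a carbonyl reductase, at 12.05 ± 4.24 TPM, and the export pump ABCC2 at 7.19 ± 0.78 TPM.

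In the order of WT levels, 11 of the 39 neighbouring pairs were separated, that is, every WT value of the higher gene exceeded every WT value of the lower. Separated pairs included FTL and FTH1, TXN and PRDX1, PRDX1 and CES1, GSTP1 and TKT, and KEAP1 and GCLM. The other 28 pairs overlapped in range. Compared within each library, 26 of the 39 pairs kept the same order in all 3 WT libraries, AKR1C1 over AKR1C3 and NQO1 over AKR1B10 among them, and the order of the other 13, such as CES1 and ALDH3A1, was mixed. TPM ratios between the groups run higher than the edgeR fold changes by 0.11 on the log2 scale for the median gene, so differences between groups are given below on the edgeR scale.

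**Figure D1:**
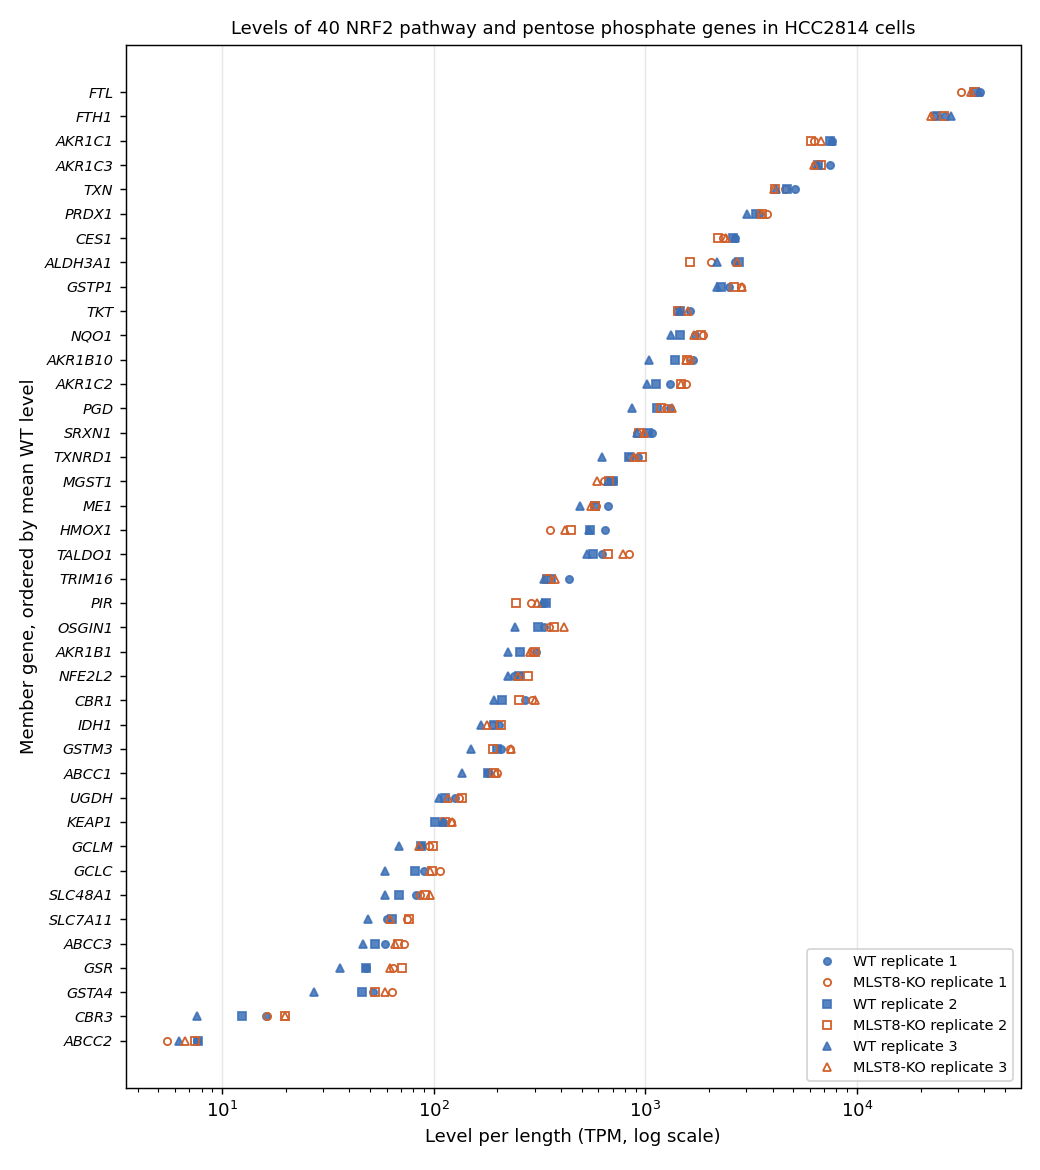
TPM (log axis) of the 40 members in the 3 WT libraries (filled blue) and the 3 MLST8-KO libraries (open orange), ordered by mean WT level. Levels run from 7.19 TPM for ABCC2 to 37151 TPM for FTL in WT, and for most genes the points of the groups lie close together.

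In the edgeR fit 10 of the 40 members were called between MLST8-KO and WT cells, and none differed by as much as 2-fold. At an adjusted p under 0.05, 4 of the 40 members were higher in MLST8-KO cells, GSR, TALDO1, AKR1C2 and ABCC3, which is 10.0% of them against 16.3% of all genes tested. Another 6 were lower, HMOX1, PIR, AKR1C1, CES1, FTL and MGST1, which is 15.0% against 15.7% of all genes tested. In this edgeR fit both shares are at or under the background, and in either direction 10 members were called, against 32.0% of all genes tested. The fold changes of the members ran from -0.62 (HMOX1) to 0.53 (CBR3, which did not pass the test) on the log2 scale, whereas 559 genes of the whole table were called with a log2 fold change of at least 1 in size. The median log2 fold change of the members was 0.05, beside 0.00 for all genes tested, and the median size was 0.22 beside 0.25. In 27 of the 40 members the 95% interval lay within -0.5 to 0.5.

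Every MLST8-KO library lay above every WT library in 5 members (12.5%, against 24.8% of all genes tested) and below in 8 members (20.0%, against 24.2%). The split of the calls depended on the scaling, with 4 higher and 6 lower as fitted, 5 higher and 3 lower with upper quartile scaling, and 5 higher and 2 lower with limma on log2(FPKM + 1). With DESeq2 5 of the 40 members were higher, against 13.5% of all genes tested, and 9 of the 40 were lower, against 14.6%. In that fit the share of members that were lower lay above that of all genes tested, and the share that were higher lay below it. In either direction DESeq2 called 14 members, and 3844 of the 13693 genes it tested. The number of higher members changed with each library left out, to 12 without WT replicate 1, to 1 without WT replicate 2 or WT replicate 3, and to 1, 2 and 1 without MLST8-KO replicate 1, 2 or 3. Over all genes tested the higher calls changed in the same fits from 2116 to 2692, 971 and 1634 without WT replicates 1, 2 and 3, and to 979, 1136 and 1543 without MLST8-KO replicates 1, 2 and 3. The number of lower members was 2 without WT replicate 2 and 1 without MLST8-KO replicate 1 or MLST8-KO replicate 2. Over all genes tested the lower calls changed from 2030 to 1044, 850 and 1091 in these fits. Leaving out a library also gave a call to 12 members that had none, each in 1 of the 6 fits, and the largest adjusted p of these members over the 6 fits ran from 0.174 to 0.818.

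**Figure D2:**
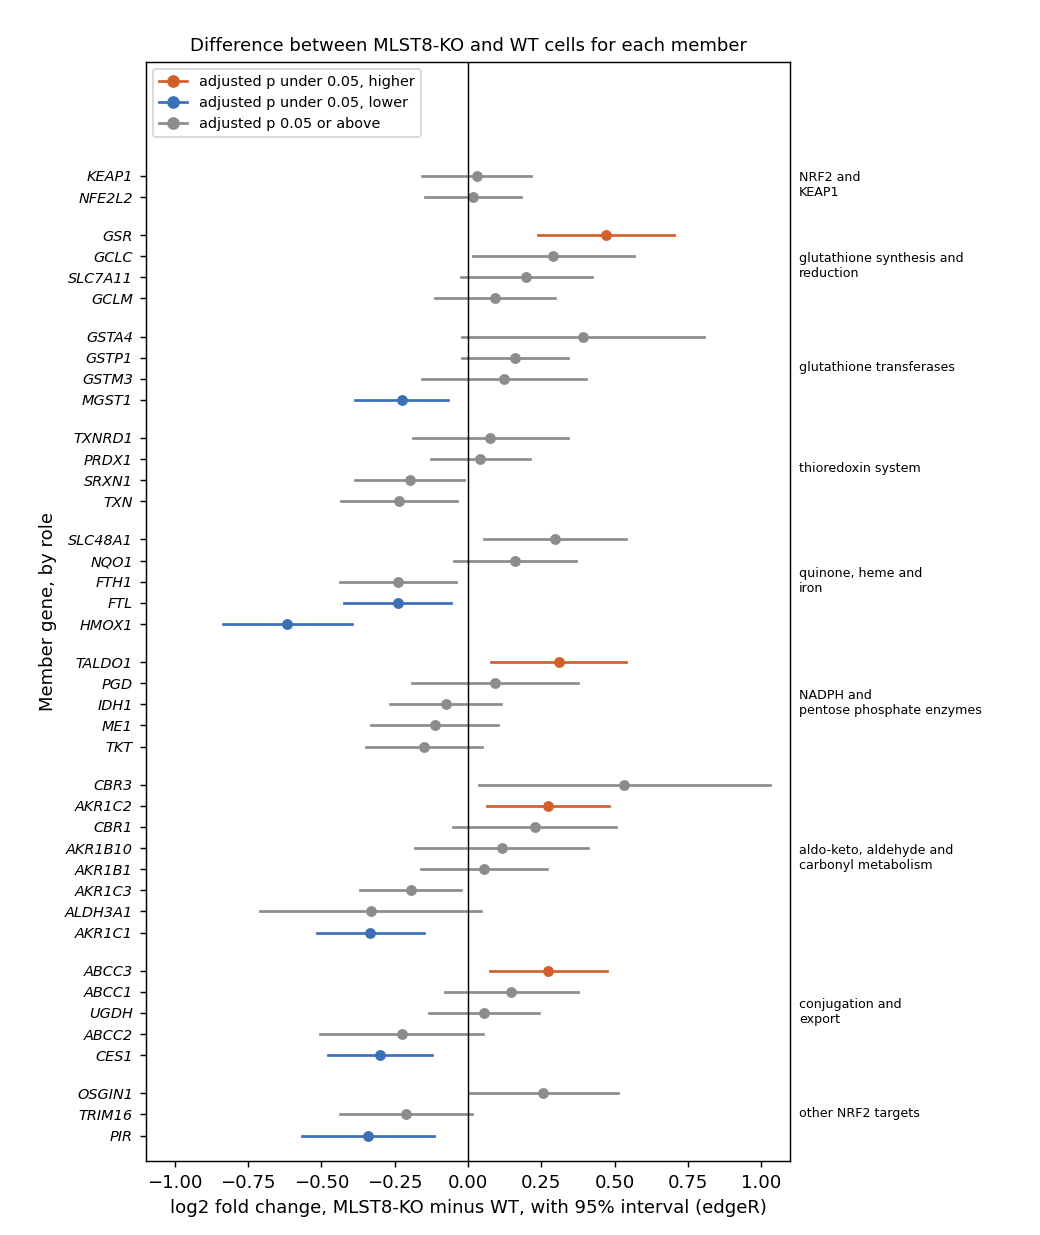
log2 fold change of each member (MLST8-KO minus WT, edgeR) as a point with its 95% interval as a line, grouped by role. Orange marks the 4 members with an adjusted p under 0.05 that were higher, blue the 6 that were lower, and grey the other 30.

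The regulators themselves did not pass the test. NFE2L2 (chr2:177227595-177392697) stood at 362, 378 and 351 CPM in WT and at 355, 386 and 364 CPM in MLST8-KO libraries. The log2 fold change was 0.02 with a 95% interval of -0.15 to 0.18 (adjusted p = 0.869). KEAP1 (chr19:10486120-10503741) stood at 149, 138 and 155 CPM against 152, 139 and 159.6 CPM, a log2 fold change of 0.03 with an interval of -0.16 to 0.21. The groups overlapped in both genes, and the sign of both fold changes turned with the library left out, between -0.02 and 0.04 for NFE2L2 and between -0.02 and 0.08 for KEAP1. These are transcript levels, and NRF2 is set mainly by the stability of its protein, which RNA-seq does not measure.

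Among the genes of glutathione synthesis and reduction, GSR rose and the other 3 did not pass the test. GSR, the NADPH-dependent reductase that returns oxidized glutathione to its reduced form, stood at 80.7, 80.8 and 63.0 CPM in WT and at 101, 109.5 and 101 CPM in MLST8-KO libraries. The groups did not overlap, and the log2 fold change was 0.47 ± 0.10 (SE, 1.39-fold, adjusted p = 0.00947). GSR was called in all 6 fits that left out a library, with log2 fold changes of 0.36 to 0.53 and adjusted p-values of 0.00235 to 0.0448. It was also called in all 8 other alternatives.

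GCLC, the catalytic subunit of the enzyme that limits glutathione synthesis, stood at 173, 159 and 119 CPM in WT and at 195, 176 and 182 CPM in MLST8-KO libraries. The groups did not overlap, but the log2 fold change of 0.29 (95% interval 0.02 to 0.56) had an adjusted p of 0.0924, which became 0.0139 without WT replicate 1, with a log2 fold change of 0.40. GCLM, the regulatory subunit, had a log2 fold change of 0.09 (-0.11 to 0.30). SLC7A11, the transporter that brings in cystine, had one of 0.20 (-0.02 to 0.42). WT replicate 3 was the lowest of all 6 libraries in each of these 4 genes.

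The glutathione transferases did not move together. MGST1, a membrane-bound transferase, fell, with 298, 303 and 298 CPM in WT and 260.3, 264 and 244 CPM in MLST8-KO libraries. The WT values lay close together, and all 3 MLST8-KO values were below them. Its log2 fold change was -0.23 ± 0.07 (SE, adjusted p = 0.0364). Without WT replicate 2, MLST8-KO replicate 1, MLST8-KO replicate 2 or MLST8-KO replicate 3 the call was lost, at adjusted p-values of 0.12, 0.0981, 0.0653 and 0.103, with log2 fold changes of -0.19 to -0.25. It was also lost with upper quartile scaling (adjusted p = 0.0942) and with limma on log2(FPKM + 1) and log2(FPKM + 0.1) (0.11 and 0.109), and kept in the other 5 alternatives. GSTP1, the most abundant transferase at 2309 ± 161 TPM in WT, had a log2 fold change of 0.16 (-0.02 to 0.34). GSTM3 had one of 0.12 (-0.16 to 0.40). GSTA4, which conjugates lipid aldehydes, had one of 0.39 (-0.02 to 0.80), and was called only without WT replicate 1, at 0.57 and an adjusted p of 0.018.

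No gene of the thioredoxin system passed the test. TXN, the small protein that reduces disulfides, stood at 1989, 1859 and 1706 CPM in WT and at 1713, 1467 and 1538 CPM in MLST8-KO libraries. The fitted log2 fold change was -0.24 (95% interval -0.43 to -0.04, adjusted p = 0.0675), and it was called without WT replicate 3 (-0.29, adjusted p = 0.0273) and with DESeq2 (adjusted p = 0.038, with 0.0544 to 0.223 in the other 7 alternatives). SRXN1, which repairs overoxidized peroxiredoxins, had a log2 fold change of -0.20 (-0.39 to -0.01), and passed without WT replicate 3 (-0.25, adjusted p = 0.0441). Of the words of 50 coding bases in SRXN1, 42.5% also occur in transcripts of the annotated gene AL121758.1. TXNRD1, the NADPH-dependent reductase of thioredoxin, had one of 0.08 (-0.19 to 0.34), and the peroxidase PRDX1 one of 0.04 (-0.13 to 0.21).

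Among the genes of quinone, heme and iron handling, HMOX1 showed the largest difference of the 10 members called. HMOX1 (chr22:35380361-35394214), heme oxygenase, which opens the heme ring and frees its iron, stood at 509, 438 and 447 CPM in WT and at 265, 322 and 322 CPM in MLST8-KO libraries. The highest MLST8-KO library lay well below the lowest WT library. The log2 fold change was -0.62 ± 0.10 (SE, 0.65-fold, adjusted p = 0.00362). HMOX1 was called in all 8 alternatives and in all 6 fits that left out a library, with log2 fold changes of -0.53 to -0.66 and adjusted p-values of 0.000996 to 0.0224.

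FTL (chr19:48965301-48966878) fell, with 14892, 14242 and 15605 CPM in WT and 11661, 13014 and 13197 CPM in MLST8-KO libraries. The groups did not overlap, and MLST8-KO replicate 1 was the lowest library. The log2 fold change of -0.24 ± 0.08 (SE) had an adjusted p of 0.0479, close to the threshold. The call was lost without WT replicate 2, WT replicate 3, MLST8-KO replicate 1, MLST8-KO replicate 2 or MLST8-KO replicate 3, at adjusted p-values of 0.0839, 0.0763, 0.207, 0.0832 and 0.0802 and log2 fold changes of -0.19 to -0.28. The call was kept in only 3 of the 8 alternatives, with the lowest adjusted p, 0.0191, under DESeq2. It was lost with upper quartile scaling (adjusted p = 0.1) and with limma on log2(FPKM + 1) (0.273) and log2(FPKM + 0.1) (0.257). It was also lost with at least 10 counts in every sample (0.0812) and with the replicate block (0.0722).

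FTH1 (chr11:61959718-61967660) had the same log2 fold change of -0.24 (95% interval -0.44 to -0.04) and narrowly missed the threshold, at an adjusted p of 0.0614. It stood at 15394, 14341 and 17217 CPM in WT and at 13003, 13940.5 and 12824 CPM in MLST8-KO libraries, so that these groups did not overlap either. It was called without WT replicate 1 (-0.25, adjusted p = 0.0447), with DESeq2 (0.0304) and with no filter (0.0451), and had adjusted p-values of 0.059 to 0.277 in the other 6 alternatives. Of the words of 50 coding bases in FTH1, 77.8% also occur in transcripts of 15 other annotated genes, FTH1P7 foremost, and 31.9% of those of FTL occur in other genes, so the counts of both depend on how reads were divided.

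NQO1 (chr16:69706996-69726951), the quinone reductase often read as a gauge of NRF2, stood at 2304, 1965 and 1839 CPM in WT and at 2365, 2252 and 2207 CPM in MLST8-KO libraries. The groups overlapped through WT replicate 1, and the log2 fold change was 0.16 (95% interval -0.05 to 0.37, adjusted p = 0.211). Without WT replicate 1 it was 0.26, with an adjusted p of 0.0267. SLC48A1, a heme transporter, stood above WT in all 3 MLST8-KO libraries, with a log2 fold change of 0.30 (0.06 to 0.54, adjusted p = 0.0586). It was called without WT replicate 1 (0.41, adjusted p = 0.00484) and in 4 of the 8 alternatives, upper quartile scaling (0.0374), DESeq2 (0.0468) and both limma fits (0.0464 and 0.0474), with 0.0543 to 0.061 in the others.

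Of the members that make NADPH or belong to the pentose phosphate pathway, TALDO1 rose and PGD, TKT, ME1 and IDH1 did not pass the test. TALDO1 (chr11:747329-765024), transaldolase of the non-oxidative branch, stood at 374, 344 and 332 CPM in WT and at 478, 367 and 455 CPM in MLST8-KO libraries. The groups overlapped, because MLST8-KO replicate 2 lay below WT replicate 1. For TALDO1 the log2 fold change was 0.31 ± 0.10 (SE, adjusted p = 0.0439), and the call was lost without WT replicate 2 (0.29, adjusted p = 0.145), WT replicate 3 (0.27, 0.0786), MLST8-KO replicate 1 (0.23, 0.174) or MLST8-KO replicate 3 (0.27, 0.131).

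PGD, an NADPH-making enzyme of the oxidative branch, stood at 1586, 1369 and 1091 CPM in WT and at 1425, 1311 and 1575 CPM in MLST8-KO libraries, a log2 fold change of 0.09 (95% interval -0.19 to 0.38). TKT, transketolase, had one of -0.15 (-0.35 to 0.05). ME1, the cytosolic malic enzyme, had one of -0.11 (-0.33 to 0.10). IDH1, the cytosolic isocitrate dehydrogenase, had one of -0.08 (-0.27 to 0.11). The groups overlapped in all 4 genes.

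The aldo-keto reductases AKR1C1 and AKR1C2 had fitted fold changes of opposite sign, which depend on how reads were divided between them. AKR1C1 (chr10:4963253-4983283) stood at 5378, 5282 and 5556 CPM in WT and at 4225, 3981 and 4661 CPM in MLST8-KO libraries, a log2 fold change of -0.33 ± 0.08 (SE, adjusted p = 0.0143). AKR1C2 (chr10:4987400-5018031) stood at 2449, 2074 and 1967 CPM in WT and at 2677, 2494 and 2667 CPM in MLST8-KO libraries, a log2 fold change of 0.27 ± 0.09 (SE, adjusted p = 0.0481). The groups did not overlap in either gene. The count ratio of AKR1C1 to AKR1C2 was 2.20, 2.55 and 2.82 in WT and 1.58, 1.596 and 1.75 in MLST8-KO libraries. The call of AKR1C1 was lost without MLST8-KO replicate 1 (-0.32, adjusted p = 0.066) or MLST8-KO replicate 2 (-0.28, 0.0571). That of AKR1C2 was lost without WT replicate 2 (0.24, adjusted p = 0.174), WT replicate 3 (0.21, 0.107), MLST8-KO replicate 1 (0.26, 0.146), MLST8-KO replicate 2 (0.31, 0.0793) or MLST8-KO replicate 3 (0.26, 0.126). AKR1C2 passed in 6 of the 8 other alternatives, and missed the threshold with DESeq2 size factors (adjusted p = 0.05002) and with at least 10 counts in every sample (0.0531).

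The coding sequences of AKR1C1 and AKR1C2 are 98.0% identical, with 19 of 969 bases different and the longest identical run at 186 bases, and 51.6% of the words of 50 coding bases in each occur in the other. Coding bases 121 to 180 of the 3 AKR1C members (GENCODE transcripts, GRCh38) are printed to show the kind of positions that tell their reads apart, with capitals at the positions where the 3 genes are not all the same. AKR1C2 differs from AKR1C1 at 7 of these 60 bases and AKR1C3 at 3, whereas over the whole coding sequence AKR1C3 is the more distant, 91.8% identical to AKR1C1 and 91.2% to AKR1C2.
AKR1C1: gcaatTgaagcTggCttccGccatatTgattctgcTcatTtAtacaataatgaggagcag
AKR1C2: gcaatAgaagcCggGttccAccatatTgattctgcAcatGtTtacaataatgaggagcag
AKR1C3: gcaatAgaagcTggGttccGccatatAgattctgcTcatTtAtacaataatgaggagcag

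When the counts of AKR1C1 and AKR1C2 were added up before the fit, an alternative chosen after seeing the data, the pair stood at 7827, 7356 and 7523 CPM in WT and at 6902, 6475 and 7329 CPM in MLST8-KO libraries. For the sum the log2 fold change was -0.13 (adjusted p = 0.214). With AKR1C3 added it was -0.15 (adjusted p = 0.143), and neither sum passed the test, whereas AKR1C1 alone did in all 8 other alternatives, at adjusted p-values of 0.00088 to 0.0447. How far the estimated counts divide reads correctly between the genes was not tested, so the opposite directions of AKR1C1 and AKR1C2 are uncertain. AKR1C3 alone (chr10:5035354-5107686) had a log2 fold change of -0.20 (95% interval -0.37 to -0.02, adjusted p = 0.0753), with all 3 MLST8-KO libraries below WT, and was called with DESeq2 (0.044) but not in the other 7 alternatives (0.0701 to 0.32).

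The other members in the group of aldo-keto, aldehyde and carbonyl metabolism did not pass the test. ALDH3A1, an aldehyde dehydrogenase of squamous epithelia, stood at 2313, 2397 and 1966 CPM in WT and at 1692, 1312 and 2298 CPM in MLST8-KO libraries, the widest relative spread of any member in the MLST8-KO group. Its log2 fold change of -0.33 (95% interval -0.71 to 0.04, adjusted p = 0.155) became -0.57 (adjusted p = 0.026) without MLST8-KO replicate 3. AKR1B1, aldose reductase, had a log2 fold change of 0.06 (-0.16 to 0.27). AKR1B10, a retinal and aldehyde reductase, had one of 0.12 (-0.18 to 0.41). Without WT replicate 1 the value for AKR1B10 was 0.28 (adjusted p = 0.0477), and without WT replicate 3 it was -0.03. Of the words of 50 coding bases in AKR1B10, 28.5% occur in other genes, AKR1B15 foremost.

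The carbonyl reductases CBR1 and CBR3 had log2 fold changes of 0.23 (-0.05 to 0.51) and 0.53 (0.04 to 1.03). CBR3 was the least counted of these, at 8.42, 6.54 and 4.18 CPM in WT and 8.13, 9.57 and 10.1 CPM in MLST8-KO libraries, and its adjusted p was 0.0898. Without WT replicate 1 both passed, CBR1 at 0.37 (adjusted p = 0.0132) and CBR3 at 0.79 (adjusted p = 0.00899).

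Of the genes of conjugation and export, CES1 fell and ABCC3 rose. CES1 (chr16:55802851-55833337), a carboxylesterase that clears esters and drugs, stood at 2729, 2665 and 2813 CPM in WT and at 2226, 2065 and 2377 CPM in MLST8-KO libraries, without overlap. Its log2 fold change was -0.30 ± 0.08 (SE, adjusted p = 0.0188), and the call was lost without WT replicate 2 (-0.32, adjusted p = 0.0592), MLST8-KO replicate 1 (-0.30, 0.0723) or MLST8-KO replicate 2 (-0.25, 0.0703), and in both limma fits (0.0564 and 0.0543). CES1 is also abundant in liver, whose markers stood apart in MLST8-KO replicate 1. The log2 fold change of CES1 was -0.30 with or without that library, and any part of liver transcripts in its counts was not tested. Of its words of 50 coding bases, 40.4% occur in other genes, nearly all in CES1P1.

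ABCC3 (chr17:50634777-50692252), an export pump for conjugates, stood at 160.2, 145 and 129 CPM in WT and at 181, 171 and 172 CPM in MLST8-KO libraries, also without overlap. Its log2 fold change was 0.27 ± 0.09 (SE, adjusted p = 0.0408). The call was lost in 5 of the 6 fits that left out a library, without WT replicate 2 (0.27, adjusted p = 0.126), WT replicate 3 (0.20, 0.1), MLST8-KO replicate 1 (0.25, 0.137), MLST8-KO replicate 2 (0.29, 0.0874) or MLST8-KO replicate 3 (0.28, 0.0841). The pump ABCC1 had a log2 fold change of 0.15 (-0.08 to 0.37), ABCC2 one of -0.23 (-0.50 to 0.05), and UGDH, which makes the sugar donor of glucuronidation, one of 0.05 (-0.13 to 0.24).

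Among the remaining targets PIR fell. PIR (chrX:15384799-15493564), an iron-binding nuclear protein whose window holds the site printed above, stood at 254, 260.2 and 257 CPM in WT and at 208, 172 and 228 CPM in MLST8-KO libraries. The WT libraries were nearly equal, and all 3 MLST8-KO libraries lay below them. The log2 fold change was -0.34 ± 0.10 (SE, adjusted p = 0.028), and the call was lost without WT replicate 2 (-0.34, adjusted p = 0.0954), MLST8-KO replicate 1 (-0.36, 0.0745) or MLST8-KO replicate 2 (-0.23, 0.0829). It was also lost with upper quartile scaling (0.0537) and both limma fits (0.0522 and 0.053). OSGIN1, an oxidative stress growth inhibitor, had a log2 fold change of 0.26 (0.00 to 0.51, adjusted p = 0.106), and without WT replicate 1 it was 0.34 (adjusted p = 0.0295). TRIM16, a ubiquitin ligase, had one of -0.21 (-0.44 to 0.01). Because 86.9% of its words of 50 coding bases occur in other genes, the counts of TRIM16 and TRIM16L were also added up, after seeing the data, which gave -0.08 (adjusted p = 0.546).

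**Figure D3:**
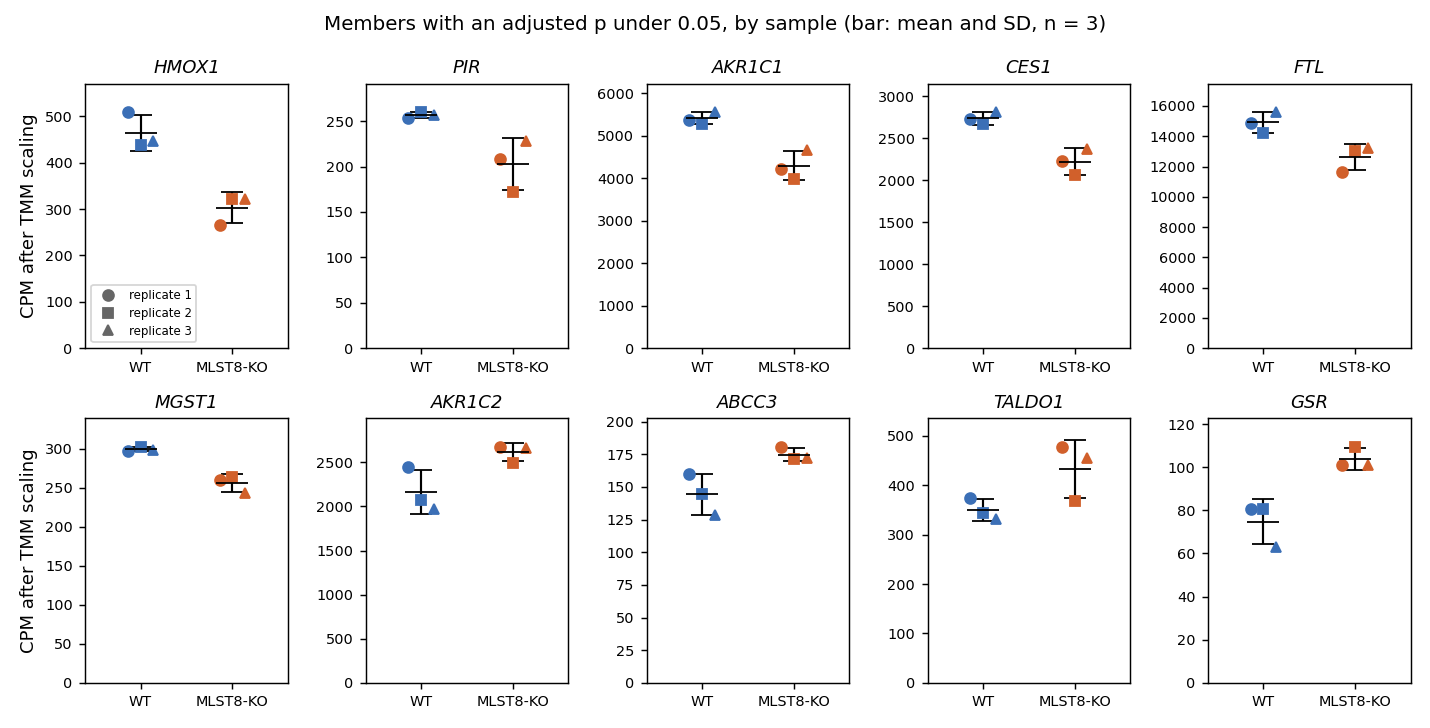
CPM after TMM scaling of the 10 members with an adjusted p under 0.05, in each of the 3 WT (blue) and 3 MLST8-KO (orange) libraries, with the mean and SD as bars and each axis starting at 0. In 9 of the 10 genes the groups do not overlap, and in TALDO1 they do.

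The WT libraries did not stand at the same level in these genes. WT replicate 3 was the lowest of the 3 WT libraries in 30 of the 40 members (75.0%), against 39.2% of all genes tested. It was the lowest of all 6 libraries in 25 of the 40 members, against 3870 of the 12951 genes tested. WT replicate 1 was the highest of the WT libraries in 28 members, against 4966 of the 12951 genes tested. The median log2 ratio of WT replicate 3 to WT replicate 1 was -0.25 over the members and 0.00 over all genes tested. The median coefficient of variation of the members was 10.6% among WT and 6.60% among MLST8-KO libraries. The 5 members highest of the WT in WT replicate 3 were FTL, FTH1, AKR1C1, CES1 and KEAP1.

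The squamous markers moved in the same way among the WT libraries. All 11 were lowest of the WT in WT replicate 3, and their summed levels were 16720, 13777 and 11156 TPM in WT replicates 1, 2 and 3. TP63, the squamous lineage factor, stood at 2103, 1752 and 1408 CPM in WT and at 2466, 2529 and 2276 CPM in MLST8-KO libraries. The part of these differences in the values of the members was not tested. GSR, GCLC, NQO1 and CBR3, whose fold changes were positive, were at their lowest in WT replicate 3.

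**Figure D4:**
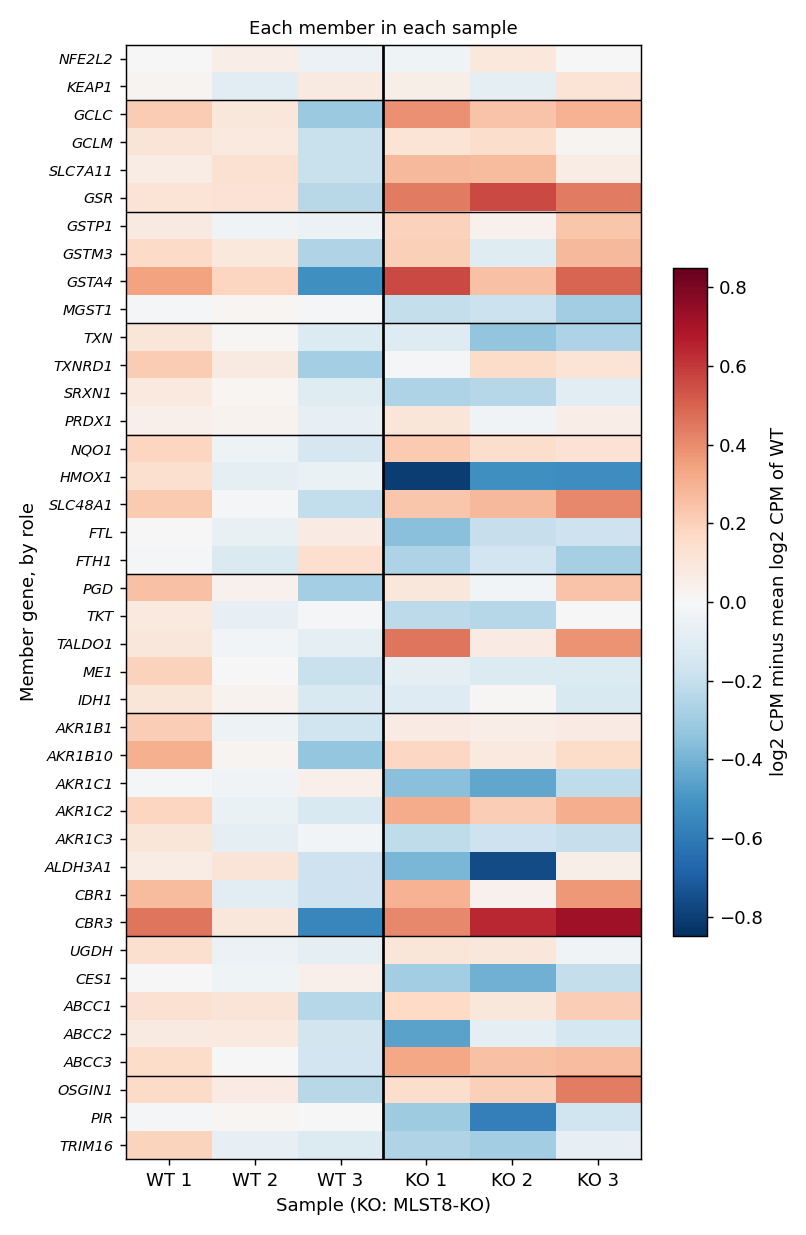
log2 CPM of each member in each library minus the mean log2 CPM of the 3 WT libraries, with members grouped by role and black lines between roles. WT 3 is bluer than WT 1 in most rows, and HMOX1 is blue in all 3 MLST8-KO libraries.

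The rest of the pathway was read from lists of 110 further genes, of which 99 were tested. Of these, 8 were higher and 14 lower in MLST8-KO cells, against 16.3% and 15.7% of all genes tested. Among the 14 lower genes, 11 were highest of the WT libraries in WT replicate 3, SOD2, GSK3B and SLC6A6 among them. Over all genes tested, 5112 of 12951 were highest of the WT libraries there. The part of this difference in the falls was not tested. Of the 9 other pentose phosphate genes tested, 1 was lower, RPIA, the ribose 5-phosphate isomerase, at -0.42 ± 0.10 (SE, adjusted p = 0.0134), and this call was lost without MLST8-KO replicate 1 (-0.41, adjusted p = 0.0596) or MLST8-KO replicate 2 (-0.37, 0.0544).

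Of 9 genes tested in a list of other NADPH sources, which also takes in genes of the folate cycle, 1 was higher and 2 were lower. MTHFD2, the mitochondrial folate dehydrogenase, fell from 225, 232 and 228 CPM to 172, 171 and 178 CPM, a log2 fold change of -0.40 ± 0.07 (SE, adjusted p = 0.00448) that passed in all 6 fits with a library left out. MTHFD1L, which joins it in the mitochondrial folate cycle, fell by 0.31 on the log2 scale, and the cytosolic MTHFD1 rose by 0.28. The call of MTHFD1L was lost without WT replicate 2 (-0.27, adjusted p = 0.149), MLST8-KO replicate 1 (-0.29, 0.139) or MLST8-KO replicate 2 (-0.24, 0.142). That of MTHFD1 was lost without WT replicate 2 (0.25, adjusted p = 0.113), WT replicate 3 (0.25, 0.0542), MLST8-KO replicate 1 (0.30, 0.074) or MLST8-KO replicate 2 (0.24, 0.0932).

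The superoxide and peroxide enzymes held the largest fall among these lists. SOD2, the mitochondrial superoxide dismutase, stood at 683, 1006 and 1219 CPM in WT and at 440.2, 449.7 and 419.6 CPM in MLST8-KO libraries. Its log2 fold change was -1.15 ± 0.17 (SE, adjusted p = 0.00300), and it passed in all 6 fits with a library left out, between -0.95 and -1.35. CAT, catalase, rose by 0.43 on the log2 scale (adjusted p = 0.0219), a call lost without WT replicate 2 (0.41, adjusted p = 0.0845), MLST8-KO replicate 1 (0.41, 0.0763) or MLST8-KO replicate 2 (0.40, 0.0793). MSRB3, a methionine sulfoxide reductase, rose by 1.42 from a low level of 0.87 TPM to 2.51 TPM (adjusted p = 0.00364). In all, 2 of the 7 genes tested here were higher and 1 was lower.

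Of 26 other glutathione genes tested, 1 was higher and 2 were lower. GPX1, the glutathione peroxidase of the cytosol, stood at 359, 419 and 642 CPM in WT and at 292, 288 and 301 CPM in MLST8-KO libraries, a log2 fold change of -0.69 ± 0.17 (SE, adjusted p = 0.0153). Without WT replicate 3, where it was highest, the value was smaller in size, at -0.41 (adjusted p = 0.00545). The call was lost without MLST8-KO replicate 1 (-0.68, adjusted p = 0.0573), MLST8-KO replicate 2 (-0.67, 0.0626) or MLST8-KO replicate 3 (-0.71, 0.0511). GLRX5, a mitochondrial glutaredoxin, fell by 0.39, a call lost without MLST8-KO replicate 2 (-0.34, adjusted p = 0.0574). GSTO1 rose by 0.33, a call lost without WT replicate 2 (0.32, adjusted p = 0.114), WT replicate 3 (0.29, 0.0712), MLST8-KO replicate 1 (0.25, 0.164) or MLST8-KO replicate 3 (0.31, 0.0969).

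Of 12 other thioredoxin genes tested, 1 was higher and 1 was lower. TXNL1, a thioredoxin-like protein of the proteasome, fell by 0.37 on the log2 scale (adjusted p = 0.00678) and passed in all 6 fits with a library left out. SESN2, a stress-induced sestrin that restrains mTORC1, rose by 0.33 (adjusted p = 0.0249), and this call was lost without WT replicate 2 (0.34, adjusted p = 0.08), MLST8-KO replicate 1 (0.35, 0.0689) or MLST8-KO replicate 3 (0.25, 0.0809).

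The 21 tested partners and regulators of NRF2 held 1 higher and 6 lower genes, beside 16.3% and 15.7% of all genes tested. Their median log2 fold change was -0.18, beside 0.00 for all genes tested. GSK3B, a kinase that marks NRF2 for degradation apart from KEAP1, stood at 188, 228 and 291 CPM in WT and at 117, 138 and 129 CPM in MLST8-KO libraries. This log2 fold change was -0.88 ± 0.14 (SE, adjusted p = 0.00357), and it passed in all 6 fits with a library left out, between -0.71 and -1.02. MAFK, a small MAF partner of NRF2, fell by 0.37 (adjusted p = 0.0175), a call lost without WT replicate 2 (-0.40, adjusted p = 0.0508), MLST8-KO replicate 1 (-0.30, 0.0841) or MLST8-KO replicate 2 (-0.34, 0.0684). SYVN1, a ubiquitin ligase of the endoplasmic reticulum, fell by 0.34 (adjusted p = 0.0339), a call lost without WT replicate 2 (-0.34, adjusted p = 0.101), WT replicate 3 (-0.25, 0.0802), MLST8-KO replicate 1 (-0.33, 0.11) or MLST8-KO replicate 2 (-0.30, 0.116). BACH2, of the BACH family of repressors, rose by 0.74 from 0.77 TPM to 1.27 TPM (adjusted p = 0.0311), a call lost without WT replicate 2 (0.65, adjusted p = 0.114), WT replicate 3 (0.63, 0.0677), MLST8-KO replicate 1 (0.75, 0.0807) or MLST8-KO replicate 2 (0.57, 0.123).

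Of 18 other NRF2 targets tested, from a list that shares GPX2 and SQSTM1 with other lists, 2 were higher and 1 was lower. ADH7, an alcohol dehydrogenase of squamous epithelia, rose from 93.1, 78.1 and 37.2 CPM to 153, 130.4 and 134 CPM, a log2 fold change of 1.0005 ± 0.25 (SE, adjusted p = 0.0148). Without MLST8-KO replicate 1 its call was lost (0.93, adjusted p = 0.058). ABCB6, a porphyrin transporter, rose by 0.49 (adjusted p = 0.0230), a call lost without WT replicate 2 (0.47, adjusted p = 0.0842), MLST8-KO replicate 1 (0.51, 0.0678), MLST8-KO replicate 2 (0.51, 0.065) or MLST8-KO replicate 3 (0.46, 0.0767). SLC6A6, the taurine transporter, fell from 162, 204 and 259 CPM to 101, 108 and 97.2 CPM, a log2 fold change of -1.03 ± 0.14 (SE, adjusted p = 0.00281) that passed in all 6 fits with a library left out.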

How the data were processed

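RNA was extracted from HCC2814 WT and MLST8-KO cells (the labels and the study's methods name different kits), and libraries were made by polyA selection and sequenced on the DNBSEQ platform. Reads of poor quality or with adapters were dropped by the authors, and the rest were mapped by HISAT (genome GRCh38.p12, also in the submitters' processing notes) and by BowTie2 (reference genes), in versions not given in the sources used here. The authors deposited estimated counts, which are not normalized, with FPKM and TPM, which the authors scaled by gene length and depth. A second deposited table, not used here, holds the authors' own DESeq2 results, with fold changes and their p-values or q-values. Symbols that had become dates (25) were restored through Entrez identifiers. All 6 samples were grouped by their labels.

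Of the count values 12.4% were not whole, and counts were rounded. The groups were tested in R 4.3.3 by edgeR 4.0.16 (TMM, filterByExpr by group, glmQLFit, glmQLFTest, all 6 samples, no covariate), with Benjamini-Hochberg adjustment over 12951 genes and a threshold of 0.05. The fit was tested on simulated data. Levels are the deposited TPM as mean ± SD. Intervals are at 95%. Alternatives left out each sample in turn, entered the replicate number as a block, dropped the filter or required 10 counts in every library, scaled edgeR by upper quartiles or by the size factors of DESeq2, or replaced edgeR by DESeq2 (1.42.0) or by limma (3.58.1) on log2 FPKM with a pseudocount of 1 or 0.1. Between replicates the chi-square per gene was 6.71 to 25.2, above sampling noise. A count of 0 allows 3 counts, at most 0.209 CPM, which covers counting error only; the lowest count of a member was 58.

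The genes named are the 40 members, MLST8 and, from each pathway list, at most 3 genes called per direction with the largest fold changes and a mean of at least 50 counts. Markers of other cell types are named beside them, and TP63 was chosen after its values were seen. The members and lists were chosen with earlier results of these data known. Coordinates are of GENCODE 29 on GRCh38, and promoter windows of RefSeq on GRCh38.p14. Figures were drawn with matplotlib 3.10.9. Some items are not reported here.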

Additional observations from a re-analysis of the deposited data

How the results depend on the processing

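Over the 8 alternatives that kept every sample, the log2 fold changes of the 40 members kept direction and side of the threshold in 296 cases, lost the call in 15, gained one in 9 and reversed in 0. Members lower numbered 6, but 3 with upper quartile scaling and 2 with limma on log2(FPKM + 1) or log2(FPKM + 0.1), which move the fold changes of all genes up by 0.05 and 0.06 for the median gene. Calls that were higher were 51.0% of all genes called, 62.0% with upper quartile scaling and 61.5% with limma on log2(FPKM + 1). Pathway genes higher numbered 8, and 13 with upper quartile scaling. With each sample left out in turn, members higher ran from 1 to 12 and lower from 1 to 7, all genes higher from 971 to 2692 and lower from 850 to 2651, and pathway genes higher from 1 to 19 and lower from 5 to 20. The cause was not tested. The log2 fold change changed sign in 6 members, with ranges over these fits of -0.017 to 0.044 for NFE2L2 (negative without WT replicate 3 or MLST8-KO replicate 2), -0.022 to 0.081 for KEAP1 (negative without WT replicate 2 or MLST8-KO replicate 3), and, negative without WT replicate 3, -0.057 to 0.187 for TXNRD1, -0.041 to 0.224 for PGD, -0.027 to 0.167 for AKR1B1 and -0.034 to 0.278 for AKR1B10. No value was called where it was negative. The summed level of conjugation and export differed by -0.14 (log2) in TPM and by -0.18 in FPKM, and member windows with the response element fell from 12 to 6 with the longer motif by construction.

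The sample numbers were not taken as a pairing, since the correlation of deviations was 0.10, 0.06 and 0.14 for numbers 1, 2 and 3, although every sample correlated best with its own number. With a replicate block 5 members were higher and 5 lower, with GCLC gained (adjusted p = 0.047) and FTL lost (0.0722), and over all genes 2261 were higher and 2157 lower. For pathway genes, counted under the same alternatives after seeing the data, the block gave 9 higher and 17 lower.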
